A study of Mus musculus with 4 samples.

Results

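The genes described here encode the proteasome, its activators, its assembly factors and Nfe2l1, the transcription factor that controls its genes, in mouse brown adipocytes that expressed the long noncoding RNA Blnc1 or an empty vector. Members were taken by name: every probe set of the deposited table with exactly 1 annotated gene symbol that begins with Psma to Psmg and a number, or is Pomp or Nfe2l1, with 1 probe set per gene, the one with the highest mean over all 4 arrays. This gave 47 of the 10926 genes measured. Of these, Psmc3ip (a meiotic recombination factor) and Psme3ip1 (a partner of the activator subunit Psme3) matched by name but belong to no class below. Both were set apart, which left 45 proteasome genes. They fall into 14 genes of the 20S core, 5 of the immunoproteasome, 16 of the 19S regulatory particle, 7 assembly chaperones, 2 other regulators (Psme3 and Psmf1) and Nfe2l1. The other 5 genes of the list drawn up by role (Psma8, Psmb11, Psmc6, Psmd10 and Psme4) had no probe set named by the rule and were not analysed here.

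The groups compared had 2 arrays each: wild-type preadipocytes expressing Blnc1, and wild-type preadipocytes expressing vector. Both had been differentiated to brown adipocytes for 6 days before total RNA was collected. Replicates are labelled biological, with no word on separate cultures or transductions. The p-values thus cover the spread among these 4 arrays alone, which may be technical, and the small number of arrays limits the precision. Values are log2 expression values as deposited, and a difference is Blnc1 minus vector on that scale.

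The proteasome is the protease that degrades ubiquitin-tagged proteins in the cytosol and nucleus. Its barrel, the 20S core, stacks rings of alpha subunits, which gate the entrance, and rings of beta subunits, some of which carry the proteolytic sites. The 19S particle caps the barrel, recognises ubiquitin, removes it, and unfolds the substrate with a ring of ATPases. Interferons induce alternative beta subunits and the PA28 activator, which together mark the immunoproteasome. In mouse brown fat, Nfe2l1 (also called TCF11 or Nrf1) is known to maintain proteasome gene expression and to be needed for adaptation to cold.

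The expressed RNA and the labelled cell type were read first. In bulk RNA, fewer cells of a type and less RNA per cell cannot be told apart. The brighter probe set named C730029A08Rik, a symbol of Blnc1 in the reference gene table, read 12.73 and 12.75 in the Blnc1 arrays, against 8.08 and 8.14 in the vector arrays. The dimmer probe set of this symbol did not rise, at 6.35 and 6.24 in the Blnc1 arrays, against 6.82 and 6.40 in the vector arrays. Fabp4 and Adipoq, markers of fat cells, lay between 12.74 and 13.29 on all 4 arrays, while Lep and Pnpla2 of the same list lay between 3.77 and 4.68. The 10 genes listed as brown adipocyte markers, which include general fat genes, averaged 9.33 and 9.33 in the Blnc1 arrays, against 8.47 and 8.49 in the vector arrays. Of them 4 (Ucp1, Cidea, Cox7a1 and Cox8b) rose, and the others had differences between -0.31 and 0.19. The part of this marker difference in the values of proteasome genes was not tested. The 7 measured of 15 leukocyte markers averaged 4.72 and 4.73 in the Blnc1 arrays, against 4.68 and 4.66 in the vector arrays, averages below the array medians of 5.98 to 6.04. Cd3e alone of the 7 lay above them, at 6.36 and 6.29 in the Blnc1 arrays, against 6.16 and 6.37 in the vector arrays. The defining markers Ptprc, Cd68 and Lyz2 were not analysed here. The 3 measured of 10 endothelial markers averaged 4.63 and 4.69 in the Blnc1 arrays, against 4.74 and 4.68 in the vector arrays.

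No proteasome gene passed the test, and most differences were small. Of the 45 genes, 0 reached an adjusted p of 0.05 (limma, Benjamini-Hochberg over all 23599 probe sets), against 1.23% of all genes and 0.928% of all probe sets. At an adjusted p of 0.1 it was 1, Psmd8, against 4.99% of all genes. With a variance prior that follows the level 6 genes passed, or 13.3%, against 11.3% of all genes. Among probe sets at or above the median level, where fewer are tested, 2 of 44 passed, or 4.55%, against 9.39% of the 6517 genes left. At an unadjusted p of 0.05 the count was 6, with 3 genes higher and 3 lower in Blnc1 cells, which is 13.3% of the members against a background of 20.7% of all genes (11.7% higher and 9.08% lower). The log2 difference lay within 0.1 of 0 for 26 of the 45 genes, or 57.8%, against 46.7% of all genes. Their median absolute difference was 0.082, against 0.11 for all genes. In 39 of 45 genes the 95% interval of the difference included 0, and over all members the intervals reached from -0.69 to 0.55.

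The sign of the small differences was less even. Of the 45 genes, 31 had a negative difference and the median was -0.071 (a ratio of 0.952), while 48.4% of all genes were negative and their median was 0.0073. Both Blnc1 arrays lay below both vector arrays for 25 of the 45 genes, or 55.6%, against a background of 24.9%. They lay above both vector arrays for 8 genes, or 17.8%, against a background of 28.3%. Among all genes at or above the median level, 28.7% lay below and 31.9% above. The groups did not overlap, in either direction, for 53.2% of all genes. Proteasome genes are co-expressed and were read on the same 4 arrays, so they are not independent replicates of the condition. Replicate arrays also differed in these genes: the Blnc1 replicates by a median of -0.063 and the vector replicates by -0.034 (replicate 2 minus replicate 1), with replicate 2 lower for 37 and 34 of the 45 genes. Over all genes these medians were -0.039 and -0.0021.

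**Figure D1:**
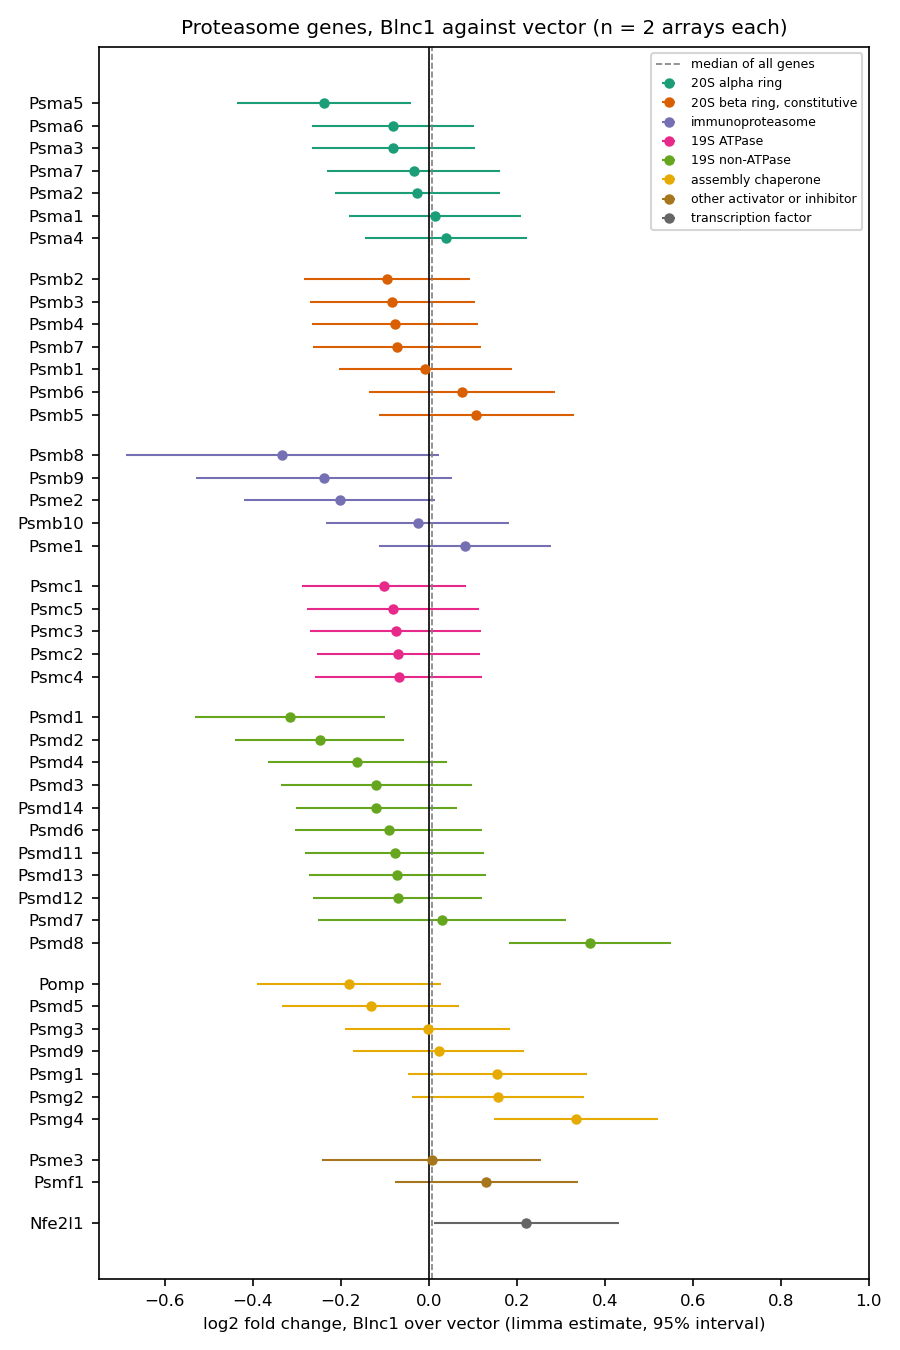
The log2 difference of each of 45 proteasome genes (x axis, Blnc1 over vector, with the 95% interval of the limma estimate) by class and gene (y axis), from 2 arrays per group. Psmd8 and Psmg4 stand farthest to the right at 0.37 and 0.34, Psmb8 and Psmd1 farthest to the left at -0.33 and -0.32, and the 5 ATPase genes lie close together between -0.10 and -0.068.

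Promoter sequence is shown for 6 genes whose values are described below. They are Psmd8 and Psmg4 with the largest positive differences, Psmd1 with the largest negative one in the 19S particle, the catalytic core genes Psmb5 and Psmb6, and Psmb8, the immune counterpart of Psmb5. Each window runs from 250 bases before to 50 bases after the gene's start in RefSeq (GRCm38.p6) and is written along the gene's own strand. Capitals mark matches, on either strand, to the antioxidant response element core TGACNNNGC, which Nfe2l1 recognises with small Maf proteins, or to the core of interferon-stimulated response elements (GAAA, any 2 bases, GAAA).
Psmd8 (chr7:29180624-29180923, minus strand): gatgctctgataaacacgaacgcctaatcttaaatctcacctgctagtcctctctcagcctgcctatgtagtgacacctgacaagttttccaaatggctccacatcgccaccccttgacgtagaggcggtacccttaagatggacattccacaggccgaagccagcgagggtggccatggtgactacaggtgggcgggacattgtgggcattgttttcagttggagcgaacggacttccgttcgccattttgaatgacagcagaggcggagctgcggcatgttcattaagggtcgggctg
Psmg4 (chr13:34162714-34163013, plus strand): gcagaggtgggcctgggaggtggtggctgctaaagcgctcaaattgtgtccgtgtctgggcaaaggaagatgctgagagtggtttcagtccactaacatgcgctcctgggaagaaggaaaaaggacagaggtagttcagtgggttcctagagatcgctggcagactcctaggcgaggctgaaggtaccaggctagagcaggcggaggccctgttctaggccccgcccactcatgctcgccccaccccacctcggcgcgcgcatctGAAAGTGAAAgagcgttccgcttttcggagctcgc
Psmd1 (chr1:86064369-86064668, plus strand): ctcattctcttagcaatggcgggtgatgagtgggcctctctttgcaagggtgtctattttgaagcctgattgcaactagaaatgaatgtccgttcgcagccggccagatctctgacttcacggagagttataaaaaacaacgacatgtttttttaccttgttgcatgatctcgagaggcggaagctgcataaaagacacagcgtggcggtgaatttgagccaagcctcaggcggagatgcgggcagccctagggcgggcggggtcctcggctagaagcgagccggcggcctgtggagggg
Psmb5 (chr14:54617946-54618245, minus strand): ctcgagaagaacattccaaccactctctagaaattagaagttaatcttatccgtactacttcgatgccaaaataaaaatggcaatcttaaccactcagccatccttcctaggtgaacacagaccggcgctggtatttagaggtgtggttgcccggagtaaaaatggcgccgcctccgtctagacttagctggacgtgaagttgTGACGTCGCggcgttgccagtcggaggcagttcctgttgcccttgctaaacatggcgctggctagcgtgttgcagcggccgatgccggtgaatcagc
Psmb6 (chr11:70525107-70525406, plus strand): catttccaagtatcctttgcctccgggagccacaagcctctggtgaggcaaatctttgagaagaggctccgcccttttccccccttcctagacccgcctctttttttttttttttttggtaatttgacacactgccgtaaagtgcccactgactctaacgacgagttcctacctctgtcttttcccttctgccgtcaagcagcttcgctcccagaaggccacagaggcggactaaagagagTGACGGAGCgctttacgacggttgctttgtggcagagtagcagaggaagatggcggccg
Psmb8 (chr17:34197945-34198244, plus strand): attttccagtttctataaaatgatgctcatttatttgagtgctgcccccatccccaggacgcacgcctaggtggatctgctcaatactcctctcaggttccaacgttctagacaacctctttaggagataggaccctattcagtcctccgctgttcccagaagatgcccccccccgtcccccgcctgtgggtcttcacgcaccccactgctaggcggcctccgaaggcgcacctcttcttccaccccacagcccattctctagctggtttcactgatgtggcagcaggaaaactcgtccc

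Psmb5 and Psmb6 each hold a match to TGACNNNGC shortly before the start, at positions -47 to -39 and -9 to -1 counted from a start of 0. Psmg4 holds a match to the interferon-stimulated core after the start, and the windows of Psmd8, Psmd1 and Psmb8 hold neither motif. The 38 measured members in the table have 45 windows, since some have more than 1 start. Of these windows, 4 held TGACNNNGC (in Psmb5, Psmb6, Psmd9 and Psmd12), or 8.89%, against 12.4% of all 32851 windows. The interferon-stimulated core was present in 5 of 45 windows (in Psmb3, Psmd4, Psmd9, Psme1 and Psmg4), or 11.1%, against 3.44% of all windows. Of these 5 genes only Psme1 is in the immunoproteasome class, and their differences lay between -0.16 and 0.34. The 2 motifs were searched apart and no match overlapped another in these windows. A match describes the letters of the window and is no evidence of binding.

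In the alpha ring of the 20S core, 5 of 7 genes had a negative difference, with a median of -0.034, and none passed the test. Psma5 encodes the alpha subunit with the largest difference. It read 9.31 and 9.21 in the Blnc1 arrays, against 9.52 and 9.48 in the vector arrays, a log2 difference of -0.24 ± 0.081 (SE, n = 2 each, limma adjusted p = 0.198). Both Blnc1 arrays lay below both vector arrays, and the groups were separated by more than the gap within either. Psma6 read 10.92 and 10.93 in the Blnc1 arrays, against 11.01 and 11.00 in the vector arrays (difference -0.081 ± 0.075 SE). Psma3 read 10.91 and 10.89 in the Blnc1 arrays, against 11.00 and 10.97 in the vector arrays (difference -0.081 ± 0.076 SE). The groups did not overlap for either gene, and the 95% interval of each difference included 0. Psma1, Psma2, Psma4 and Psma7 lay between -0.034 and 0.038.

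Of the 7 constitutive beta ring genes, 5 had a negative difference, with a median of -0.072, and none passed the test. Psmb5, Psmb6 and Psmb7 encode the constitutive catalytic subunits, with chymotrypsin-like, caspase-like and trypsin-like activity, and the other 4 are structural. Psmb5 read 10.43 and 10.36 in the Blnc1 arrays, against 10.37 and 10.21 in the vector arrays (difference 0.11 ± 0.090 SE, limma adjusted p = 0.577). Psmb6 read 9.79 and 9.68 in the Blnc1 arrays, against 9.71 and 9.61 in the vector arrays (difference 0.075 ± 0.086 SE). These were the only constitutive beta genes with a positive difference, and for both the groups overlapped. Psmb7 stood at -0.072 ± 0.078 (SE), so the catalytic genes did not share a sign.

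Among the structural beta genes, Psmb2 read 10.09 and 10.03 in the Blnc1 arrays, against 10.16 and 10.14 in the vector arrays (difference -0.094 ± 0.077 SE). Psmb3 read 10.79 and 10.78 in the Blnc1 arrays, against 10.89 and 10.84 in the vector arrays (difference -0.083 ± 0.076 SE). Its second probe set stood at 0.10 ± 0.096 (SE), so the 2 probe sets of this gene disagreed in sign. Psmb4 lay at -0.077 and Psmb1 at -0.0078. For the 14 core genes together the 95% intervals of the differences lay between -0.44 and 0.33.

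Of the 5 immunoproteasome genes, 4 had a negative difference, with a median of -0.20, and none passed the test, also at an unadjusted p of 0.05. The median was -0.089 without vector replicate 2, -0.12 without Blnc1 replicate 2 and -0.10 with all probe sets of a gene averaged. Psmb8, the immune chymotrypsin-like subunit, read 5.22 and 4.97 in the Blnc1 arrays, against 5.25 and 5.60 in the vector arrays (difference -0.33 ± 0.15 SE, limma adjusted p = 0.290). Its vector replicates lay 0.35 apart, which is as large as the difference between the groups, and all 4 values were below the array medians. Without vector replicate 2 the difference was -0.16. Psmb9, the immune counterpart of Psmb6, read 6.45 and 6.34 in the Blnc1 arrays, against 6.48 and 6.78 in the vector arrays (difference -0.24 ± 0.12 SE, limma adjusted p = 0.347). Its other probe set stood at 0.030 ± 0.095 (SE), and without vector replicate 2 the one used stood at -0.089. Psmb10, the immune counterpart of Psmb7, read 7.16 and 7.03 in the Blnc1 arrays, against 7.15 and 7.09 in the vector arrays, with overlapping groups (difference -0.025 ± 0.085 SE).

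The PA28 activator genes lay in opposite directions. Psme2, which encodes its beta subunit, read 10.38 and 10.22 in the Blnc1 arrays, against 10.52 and 10.48 in the vector arrays (difference -0.20 ± 0.088 SE, limma adjusted p = 0.290). Without Blnc1 replicate 2 it stood at -0.12. Psme1, which encodes the alpha subunit of the same ring, read 9.85 and 9.76 in the Blnc1 arrays, against 9.72 and 9.72 in the vector arrays (difference 0.082 ± 0.080 SE, limma adjusted p = 0.633). The groups did not overlap for either gene. In the reference annotation the pair are close neighbours on chromosome 14, with 1 coding gene (Emc9) between them, and Psmb8 and Psmb9 lie on chromosome 17 on either side of Tap1.

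The change of each immune subunit relative to its constitutive counterpart was also computed within arrays. Psmb8 over Psmb5 differed by -0.44, Psmb9 over Psmb6 by -0.31 and Psmb10 over Psmb7 by 0.046 (log2, Blnc1 minus vector). Relative to Psme3, the subunit of the nuclear activator, Psme2 differed by -0.21 and Psme1 by 0.076. Both Blnc1 arrays lay below both vector arrays for Psmb8 over Psmb5, Psmb9 over Psmb6 and Psme2 over Psme3. With 2 arrays against 2 the two-sided exact permutation test cannot go below p = 0.333, the value it gave for these 3 of 5 ratios (adjusted p = 0.556), and it gave p = 0.667 for the other two. Without vector replicate 2 the change of Psmb8 over Psmb5 was -0.19 and that of Psmb9 over Psmb6 -0.12. With all probe sets of a gene averaged, Psmb9 over Psmb6 differed by -0.18 and Psme2 over Psme3 by -0.15. Psme1 over Psme3 then differed by 0.14, and the ratios of Psmb8 and Psmb10 were unchanged.

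**Figure D2:**
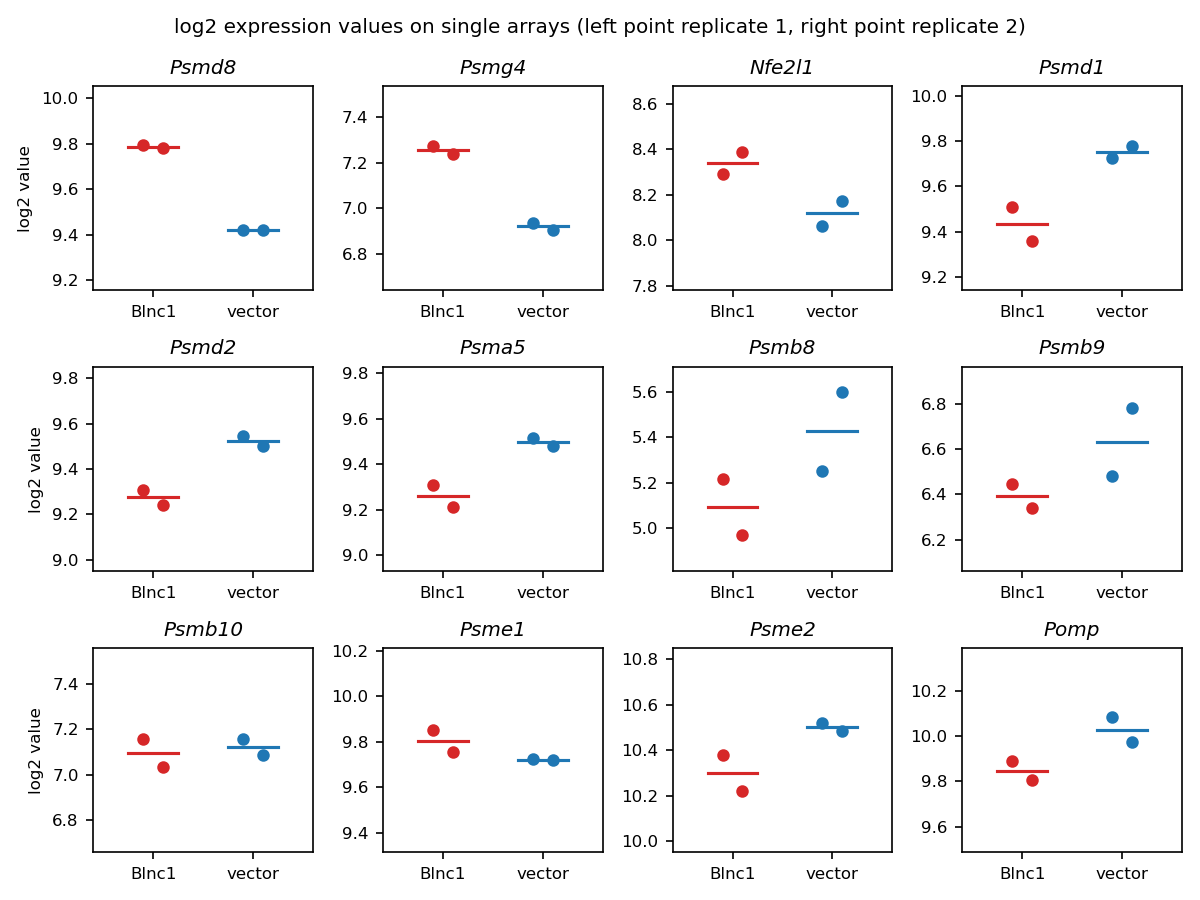
Deposited log2 values (y axis, one panel per gene, every panel spanning the same range) of 12 proteasome genes on the 2 Blnc1 arrays (left, red) and the 2 vector arrays (right, blue), with each group's mean as a line. The replicates of Psmd8 and Psmg4 nearly coincide, at 9.79 and 9.78 in Blnc1 arrays against 9.42 and 9.42 in vector arrays for Psmd8, whereas the vector replicates of Psmb8 and Psmb9 lie far apart.

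In the 19S particle, 14 of 16 genes had a negative difference, with a median of -0.079, and none passed the test. Both Blnc1 arrays lay below both vector arrays for 13 of the 16 genes, or 81.2%, against the background of 24.9%. Without Psmd8 the median of the other 15 was -0.081. Between the Blnc1 replicates the 16 genes differed by a median of -0.065, and between the vector replicates by -0.018. The class median was -0.047 without Blnc1 replicate 2.

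The 5 measured ATPase genes, which encode the unfolding ring at the base of the particle, were the most uniform class. All 5 had both Blnc1 arrays below both vector arrays, and their differences lay between -0.10 and -0.068, and each 95% interval included 0. Psmc1 read 8.82 and 8.86 in the Blnc1 arrays, against 8.96 and 8.93 in the vector arrays (difference -0.10 ± 0.076 SE, limma adjusted p = 0.524). Psmc5 read 9.05 and 8.98 in the Blnc1 arrays, against 9.13 and 9.07 in the vector arrays (difference -0.081 ± 0.080 SE). Psmc3 read 9.29 and 9.23 in the Blnc1 arrays, against 9.37 and 9.30 in the vector arrays (difference -0.075 ± 0.079 SE). For Psmc5 and Psmc3 the gap between the groups was narrower than the step between replicates. Psmc2 and Psmc4 stood at -0.069 and -0.068, and the intervals of the 5 genes reached from -0.29 to 0.12.

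Of the 11 non-ATPase genes, 9 had a negative difference, with a median of -0.091. At an unadjusted p of 0.05 the count was 3, or 27.3%, against the background of 20.7%. Among all genes at or above the median level that share was 24.4%. Psmd1 and Psmd2 encode the large scaffold subunits of the base, which bind ubiquitin receptors and shuttle factors. Psmd1 read 9.51 and 9.36 in the Blnc1 arrays, against 9.72 and 9.78 in the vector arrays, a ratio of 0.803 (difference -0.32 ± 0.088 SE, limma adjusted p = 0.147). Psmd2 read 9.31 and 9.24 in the Blnc1 arrays, against 9.54 and 9.50 in the vector arrays, a ratio of 0.842 (difference -0.25 ± 0.078 SE, limma adjusted p = 0.179). Both scaffold genes were thus lower on each Blnc1 array than on either vector array, and their intervals (-0.53 to -0.100 and -0.44 to -0.056) did not include 0. They did not pass after adjustment over the table.

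Psmd8, a lid subunit whose yeast counterpart Rpn12 joins the particle late, stood apart from the rest of the particle. It read 9.79 and 9.78 in the Blnc1 arrays, against 9.42 and 9.42 in the vector arrays, a 1.29-fold difference (0.37 ± 0.075 SE, 95% interval 0.18 to 0.55, limma adjusted p = 0.0879). The gap between the groups was far wider than that within either group, and this gene had the smallest p of all members. It passed with a variance prior that follows the level (adjusted p = 0.00121) and among probe sets at or above the median level only (adjusted p = 0.0272), but not without any one of the arrays (0.201 to 0.271). It was read by 1 probe set, so no second reading of it was available here.

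The ubiquitin receptor gene Psmd4 stood at -0.16 ± 0.083 (SE) on its brightest probe set, with its other 2 at 0.0076 and 0.17. Psmd14, which encodes the deubiquitinase of the lid, read 10.47 and 10.49 in the Blnc1 arrays, against 10.60 and 10.60 in the vector arrays (difference -0.12 ± 0.075 SE, limma adjusted p = 0.454). Psmd3 lay at -0.12 ± 0.088 (SE), and Psmd6, Psmd11, Psmd12 and Psmd13 between -0.091 and -0.071. The dimmer probe sets of Psmd11 stood at 0.042 and 0.091, and the gene at 0.019 with its probe sets averaged. That of Psmd6 stood at -0.16, in the same direction as the one used. Psmd7, at 0.030 ± 0.12 (SE), had Blnc1 replicates on either side of the vector arrays, at 7.69 and 7.39 against 7.50 and 7.52.

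**Figure D3:**
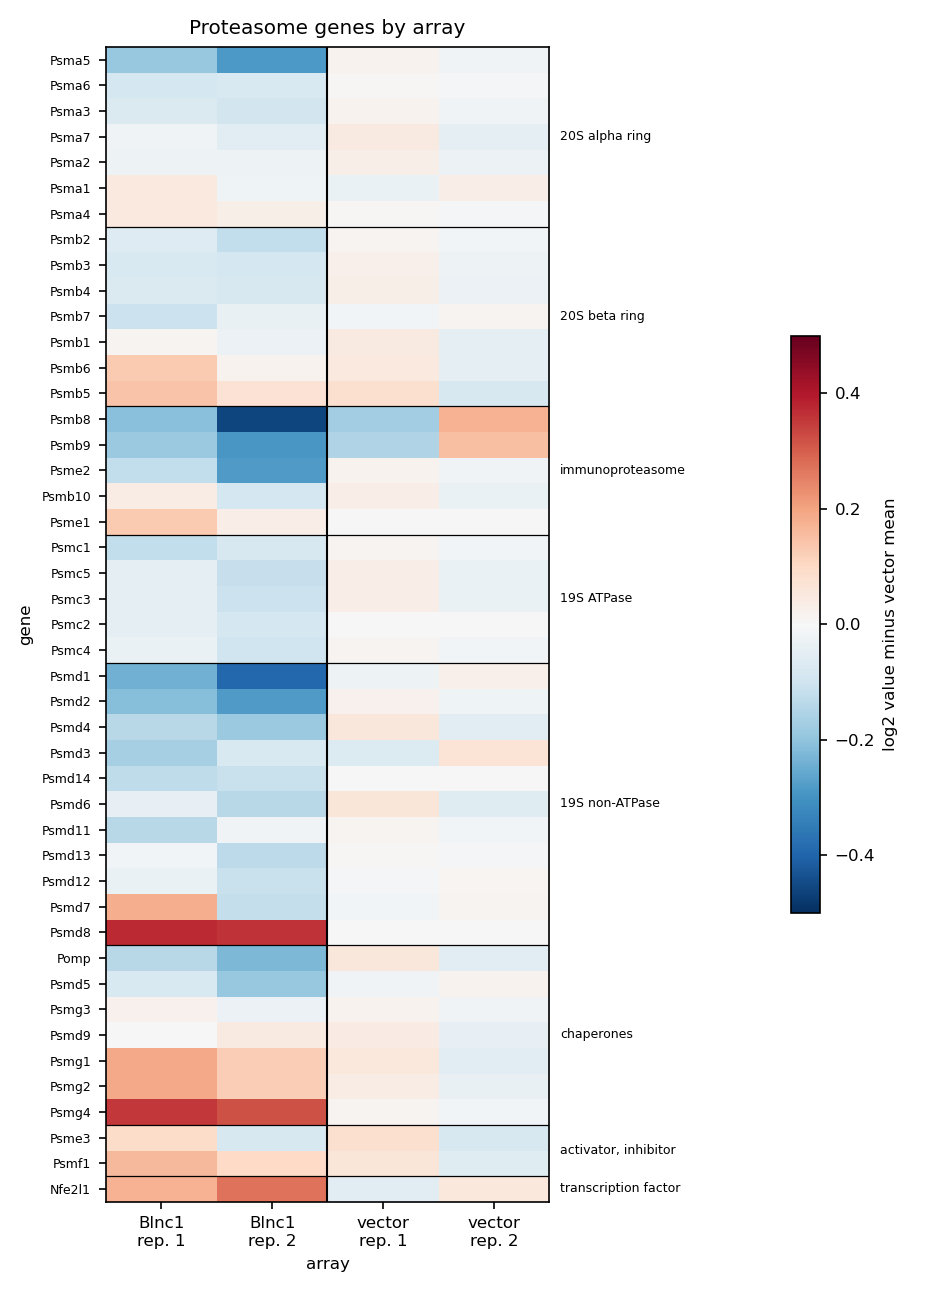
Heat map of 45 proteasome genes (y axis, by class) on the 4 arrays (x axis), coloured by the log2 value minus the gene's vector mean, red above and blue below. Most 19S rows are pale blue in both Blnc1 columns, Psmd8 and Psmg4 are red in both, and the Psmb8 and Psmb9 rows differ in colour between the 2 vector columns.

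Assembly chaperones had differences of both signs: of 7 genes, 4 were positive and 3 negative, with a median of 0.022, and none passed the test. Psmg4, one of the chaperones that build the alpha ring, read 7.27 and 7.24 in the Blnc1 arrays, against 6.93 and 6.91 in the vector arrays, a 1.26-fold difference (0.34 ± 0.076 SE, 95% interval 0.15 to 0.52, limma adjusted p = 0.105). As for Psmd8, the replicates nearly coincided, and it passed only with a variance prior that follows the level (adjusted p = 0.0366) and among probe sets at or above the median level (adjusted p = 0.0335), of the alternatives run. Psmg2 read 9.13 and 9.07 in the Blnc1 arrays, against 8.98 and 8.91 in the vector arrays (difference 0.16 ± 0.080 SE, limma adjusted p = 0.358). Its dimmer probe set stood at 0.25 ± 0.079 (SE), in the same direction. Psmg1, which pairs with Psmg2 during alpha ring assembly, stood at 0.16 ± 0.083 (SE), while Psmg3, the partner of Psmg4, stood at -0.0030 ± 0.077 (SE).

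Pomp, the maturation factor on which the beta ring is built, lay on the other side. It read 9.89 and 9.80 in the Blnc1 arrays, against 10.08 and 9.97 in the vector arrays, a ratio of 0.882 (difference -0.18 ± 0.085 SE, limma adjusted p = 0.323). The groups did not overlap, and the gap between them was narrower than the step between the vector replicates. Of the chaperones of the 19S base, Psmd5 stood at -0.13 ± 0.082 (SE), with both Blnc1 arrays below both vector arrays. Psmd9 stood at 0.022 ± 0.079 (SE) with overlapping groups, and its other probe set at -0.27 ± 0.14 (SE). The class median was -0.018 without vector replicate 2, so it had no settled sign.

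Nfe2l1 read 8.29 and 8.39 in the Blnc1 arrays, against 8.06 and 8.17 in the vector arrays, a 1.17-fold difference (0.22 ± 0.086 SE, 95% interval 0.011 to 0.43, limma adjusted p = 0.244). Both Blnc1 arrays lay above both vector arrays, and the gap between the groups was about as wide as the step between replicates of either group. The test was not passed, and the transcript level says nothing of the processed protein, which is set largely after translation. Psmf1, a proteasome-binding regulator known as PI31, read 6.50 and 6.44 in the Blnc1 arrays, against 6.40 and 6.28 in the vector arrays (difference 0.13 ± 0.085 SE, limma adjusted p = 0.466). Its 3 dimmer probe sets stood at 0.12, 0.14 and -0.15. Psme3 read 7.68 and 7.51 in the Blnc1 arrays, against 7.67 and 7.50 in the vector arrays, so that its replicates differed more than its groups (difference 0.0068 ± 0.10 SE). Of the pair set apart above, Psmc3ip stood at 0.15 ± 0.17 and Psme3ip1 at -0.050 ± 0.077 (SE).

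**Figure D4:**
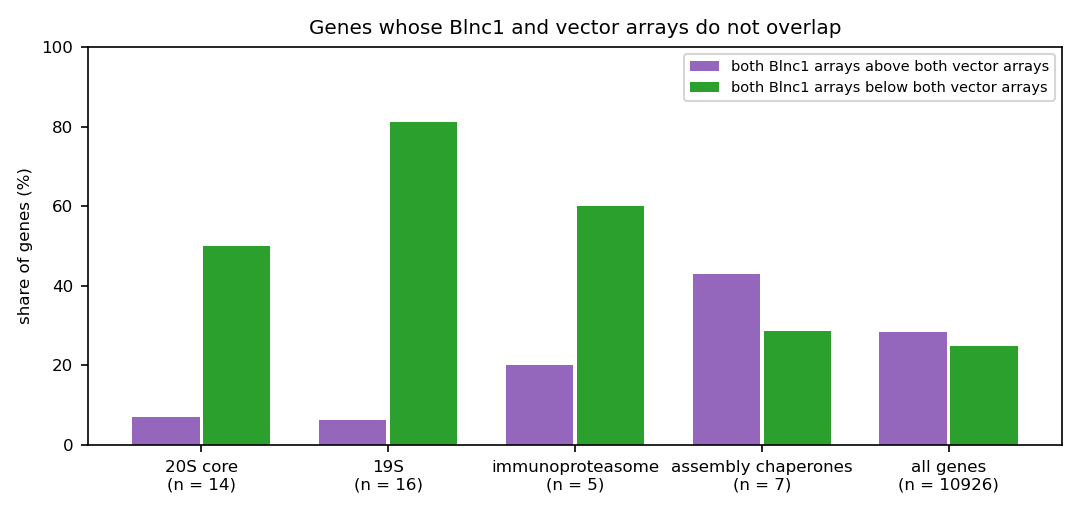
Share of genes (y axis, %) whose 2 Blnc1 arrays both lay above (purple) or both below (green) their 2 vector arrays, for the 20S core, the 19S particle, the immunoproteasome, the assembly chaperones and all 10926 genes. In the 19S particle 81.2% of 16 genes lay below and 6.25% above, against 24.9% and 28.3% of all genes.

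Several members were read by more than 1 probe set. The 13 genes concerned had 18 further, dimmer probe sets, of which 6 had the sign of the one used and 12 the opposite sign, none of them past the test (lowest limma adjusted p = 0.179) and 1, of Psmg2, at an unadjusted p of 0.05. With all probe sets of a gene averaged, 22 of the 30 core and 19S genes had a negative difference, against 24 of 30 on the probe sets used.

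Other genes of the ubiquitin pathway were read from lists drawn up by role. Among the 12 measured of 16 listed partners and processing factors of Nfe2l1, 1 rose, or 8.33%, against the background of 1.23%, and none fell. That gene was Maff, a small Maf protein that pairs with Nfe2l1 and related factors on antioxidant response elements. It read 6.49 and 6.71 in the Blnc1 arrays, against 5.74 and 5.82 in the vector arrays, a rise of 0.82 ± 0.099 (SE, limma adjusted p = 0.0382). The groups were far apart, but the adjusted p was 0.0819 with the replicate number as a block, 0.0571 after repeated quantile normalization and 0.0882 to 0.159 without any one array. Ngly1, the glycanase that activates Nfe2l1 after its release from the endoplasmic reticulum, stood at 0.16 ± 0.076, and Nploc4, a cofactor of that extraction, at 0.15 ± 0.079 (SE). The Nfe2l1 paralogue Nfe2l2 read 9.25 and 9.29 in the Blnc1 arrays, against 9.07 and 9.33 in the vector arrays, with overlapping groups.

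Among the 12 measured of 17 listed proteasome-bound and shuttle proteins none passed, and the median was -0.057, with 8 of 12 negative. The nuclear import receptor Ipo9 stood at -0.25 ± 0.081, the shuttle factor Rad23b at -0.26 ± 0.10 and the proteasome adaptor Ecpas at -0.16 ± 0.093 (SE). Rad23b stood at -0.14 without vector replicate 2 and at -0.17 with its probe sets averaged, and Ecpas at -0.065 without Blnc1 replicate 2. Of the 17 measured of 23 genes listed for ubiquitin and its activation, mostly conjugating enzymes and ligase subunits, none passed. Among these 17, 13 were negative and the median was -0.029. Ube2n, which builds a type of ubiquitin chain used in signalling, stood at -0.28 ± 0.081, the mitotic enzyme Ube2c at -0.24 ± 0.079 and the cullin ligase subunit Rbx1 at -0.20 ± 0.076 (SE). With all probe sets of a gene averaged, Ube2n stood at -0.17 and Rbx1 at -0.089.

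Among the 15 measured of 21 listed interferon and peptide-loading genes, which act in the same pathway as the immunoproteasome, none passed. Of these 15, 10 were negative, with a median of -0.067. Irf9 read 6.13 and 5.76 in the Blnc1 arrays, against 6.50 and 6.41 in the vector arrays (difference -0.51 ± 0.13 SE, limma adjusted p = 0.130). Stat2, its partner in the interferon-activated complex, stood at -0.32 ± 0.088, and Nlrc5, an activator of MHC class I genes, at -0.32 ± 0.094 (SE). Every value of Stat2 and Nlrc5 lay below the array medians of 5.98 to 6.04. Irf1, which induces Psmb9 in response to interferon, stood at -0.067 ± 0.10 (SE). Without Blnc1 replicate 2 the difference of Irf9 was -0.33. Both Blnc1 arrays lay below both vector arrays for 7 of the 15 genes, or 46.7%, and above them for 1 (Ifngr1), and below for 3 of the 5 immunoproteasome genes, or 60.0%, against the background of 24.9% below and 28.3% above. The groups overlapped for the other 7 of the 15. The part of these genes in the values of the immunoproteasome genes was not tested.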

How the data were processed

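Total RNA of 4 samples was labelled with biotin for single-colour Affymetrix arrays, per the labels' protocols. The deposited values are log2 expression values, 1 per probe set and array, which the authors made with tools that the submitters' processing notes list as RMA, affy and limma, without versions. The log2 scale was read from the range of 2.70 to 13.29. Raw intensities were not used here, so background correction could not be varied. Slide and scan date are not given in the sources used here, and arrays show no depth.

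After leaving out 35 control probe sets, 23599 were tested. Genes were named from GEO's platform annotation, and all 65 member probe sets kept their symbol in the reference table by Entrez ID. Groups and replicate numbers came from the sample titles. Blnc1 was compared with vector with lmFit and eBayes of limma 3.58.1 in R 4.3.3, without covariates or a filter on dim probe sets. Tests were two-sided, and 0.05 was the threshold. The limma p-values were adjusted by Benjamini-Hochberg over the whole table. Those of the exact permutation test were adjusted by the same method over the immune ratios alone. Classes were described by counts and medians without a test. The test was also run on simulated data. Values in every array were given for immunoproteasome genes, Nfe2l1, Pomp, Psme3 and Psmf1, and the 3 members with the smallest p in each other class; further genes were named by difference only, and Psmb6, Psmd7, Psmd14 and Nfe2l2 were added after their values were seen. In the pathway lists, genes past the test and the 3 with the smallest p were named, and Irf1 was added likewise. Members and lists were chosen with earlier results of these data known. The alternatives were other normalizations, variance priors, filters, probe-set choices, thresholds, a replicate block and leaving out each array.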

Additional observations from a re-analysis of the deposited data

How the results depend on the processing

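Among probe sets at or above the median level, the count of 0 proteasome genes past the test became 2 of 44. This was 4.55%, against 9.39% of the 6517 genes left by that filter. With a variance prior that follows the level the count was 6 of 45 (13.3%, against 11.3% of all genes). At an adjusted p of 0.1 it was 1 (Psmd8), where 4.99% of all genes passed. The 6 were Psmd8, Psmg4, Psmd1, Psmd2, Psma5 and Psme2. It stayed at 0 in the other alternatives and without any array (0 to 0). The 1 pathway gene past the test (Maff) became 0 after repeated quantile normalization and with the replicate block, 7 with the level-dependent prior and 0 to 0 without any array. The immunoproteasome median of -0.20 was -0.11 with the filter, which drops Psmb8, -0.10 with probe sets averaged, and -0.28 to -0.089 without each array. The chaperone median of 0.022 ranged from -0.018 to 0.062 without each array. The core and 19S medians stayed negative (-0.069 to -0.033 and -0.11 to -0.047 without each array). All members that turned sign lay close to 0 or had disagreeing probe sets, and the cause was not tested. After repeated quantile normalization Psma1 stood at -0.0096 and Psme3 at -0.0038, and after median centring at -0.0022 and -0.0091. With probe sets averaged Psma1 stood at -0.049, Psmb3 at 0.0088, Psmd11 at 0.019, Psmd4 at 0.0042, Psmd9 at -0.13 and Psme3 at -0.056. Without each array Psma1 ranged from -0.023 to 0.050, Psma2 from -0.055 to 0.0036, Psma7 from -0.081 to 0.013, Psmb1 from -0.053 to 0.038, Psmb10 from -0.086 to 0.035, Psmd7 from -0.12 to 0.18, Psmd9 from -0.018 to 0.062, Psme3 from -0.080 to 0.093 and Psmg3 from -0.028 to 0.022. The replicate numbers were not taken as pairs (correlation of the deviations of same-numbered arrays 0.089, from 2 pairs). With the number as a replicate block 30 probe sets passed, against 219 without it, and 0 proteasome genes did. Over all probe sets the count was 2174 with the level-dependent prior, 1021 with the filter, 281 with probe sets averaged, 311 after centring, 155 after repeated normalization, and 3 to 38 without each array, where the lone array of a group is assumed to vary like the other group.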
